A study of Homo sapiens with 19 samples.

Results

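The prostaglandin and leukotriene synthesis genes are the enzymes, with 1 accessory protein, that turn membrane lipid into signalling lipids or remove such lipids. A gene was taken when its name on the array was PTGS1, PTGS2, PTGES, TBXAS1, HPGD, ALOX5, ALOX5AP, LTA4H, LTC4S or PLA2G7, which gave 10 of the 31033 gene names, read by 15 probes. RNA was measured on 19 one-colour Agilent arrays of THP-1, a human leukaemic monocyte line. All cells had first been turned into macrophage-like cells with phorbol myristate acetate (PMA, 30 nM), given fresh medium and rested. Flasks then received vit C at 0.1 mM or were left untreated (UT), and were harvested 8, 24, 48 or 96 h later. There were 2, 3, 2 and 3 UT arrays and 3, 2, 2 and 2 vit C arrays at the 4 times, after the study had set aside RNA of lower integrity. THP-1 is a single line, so the replicates are flasks and not donors, and p-values measure the spread between these flasks.

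Arachidonic acid released from membranes is oxidised along 2 main routes. The cyclooxygenases PTGS1 and PTGS2 make prostaglandin H2, from which PTGES makes prostaglandin E2 and TBXAS1 makes thromboxane A2, while HPGD inactivates prostaglandins. Along the other route ALOX5, helped by the membrane protein ALOX5AP, makes leukotriene A4, which LTA4H turns into the neutrophil attractant leukotriene B4 and LTC4S into the cysteinyl leukotriene C4. PLA2G7 is the secreted enzyme of macrophages that breaks down platelet-activating factor and oxidised phospholipids. The arrays read RNA and not the lipids.

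Levels are given as the log2 processed signal of a probe minus the 75th percentile of its array, for the brighter probe where a gene has 2, and they are compared between groups and never between probes. A difference was called when the absolute log2 fold change was at least 1 and the Benjamini-Hochberg q of limma, adjusted over all genes, was at most 0.05. The arrays' 75th percentiles ran from 290.2 to 902.3 signal units and 57.5% to 72.8% of probes were well above background. Of 10 macrophage markers 9 were well above background on all 19 arrays, and the other, LYZ, was so on 18. CD3D of T cells, MS4A2 of mast cells and COL1A2 of fibroblasts were above background on no array, and MS4A1 of B cells on 1. Of the other mast cell markers HDC was above background on 8 arrays, KIT on 7 and CPA3 on 4. The lymphocyte genes CD3E, CD79A and NKG7, however, were above background on all 19. The arrays came from 4 slides. UT arrays at 8, 24 and 48 h were all on slide 1, vit C arrays at 8 and 24 h all on slide 2, and vit C arrays at 96 h made up slide 4, so for 96 h slide and treatment cannot be told apart. The vit C arrays of 48 h were split, 1 on slide 2 and 1 alone on slide 3. Only UT 96 h was on both slides 1 and 2, with replicate 1 on slide 1. With the slide as a fixed block, differences between vit C and UT cells thus hang on the UT 96 h arrays. At 48 h they also rest on 1 vit C array. UT 96 h replicate 3 correlated best with a vit C array of 96 h and not with another UT array. Without it the 3 calls at 96 h given below remained, with PTGS2 at 1.57, LTA4H at 1.19 and LTC4S at -1.76.

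PTGS2 and PTGES, which act one after the other, both had their highest group mean in vit C-treated cells at 48 h, and the stretches just upstream of their transcription starts are shown for that reason. The sequences are the 250 bases before the start from RefSeq (GRCh38.p14), written along the gene. Capitals mark matches on either strand to 8 motifs, none of which overlapped another in these windows.
PTGS2, chr1:186680424-186680673, minus strand: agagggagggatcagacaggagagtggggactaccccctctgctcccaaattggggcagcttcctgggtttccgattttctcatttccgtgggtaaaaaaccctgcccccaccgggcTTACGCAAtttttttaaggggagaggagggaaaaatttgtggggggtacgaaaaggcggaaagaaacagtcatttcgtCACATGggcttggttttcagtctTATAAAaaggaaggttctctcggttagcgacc
PTGES, chr9:129753043-129753292, minus strand: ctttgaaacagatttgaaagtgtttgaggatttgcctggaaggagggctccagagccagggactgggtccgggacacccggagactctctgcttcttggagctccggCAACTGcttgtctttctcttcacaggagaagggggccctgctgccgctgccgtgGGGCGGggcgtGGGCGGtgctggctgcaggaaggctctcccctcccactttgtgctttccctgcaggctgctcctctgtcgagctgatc

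The PTGS2 window held a TATA box (TATAAA) starting 32 bases before the start, an E-box (CANNTG) at 55 and a C/EBP site (TTNNGNAA) at 133 bases. Among 35116 promoter windows of the same length 3763 held the TATA box, 21707 an E-box and 11659 a C/EBP site. The PTGES window held an E-box at 143 bases and GC boxes (GGGCGG, in 42.6% of windows) at 89 and 78 bases. Neither window held the full letters TGACGTCA of the cyclic AMP response element (1.65% of windows), the AP-1 letters TGANTCA (6.57%), the PU.1 core GAGGAA (23.6%) or the hypoxia core ACGTG (18.5%). Variant forms of these elements were not searched. A match describes letters only. The window of PTGES, unlike that of PTGS2, had no TATA box, and the E-box is the only motif of the 8 that both held.

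Against UT cells of the same time, vit C-treated cells showed no called change of these genes at 8 h, a lower ALOX5AP at 24 h, higher PTGS2 and ALOX5 with lower PTGS1 at 48 h, and higher PTGS2 and LTA4H with lower LTC4S at 96 h. The counts were 0 of 8, 1 of 10, 3 of 9 and 3 of 9 genes tested, since genes whose probes go in opposite directions are left out. Over all genes tested the shares called at these times were 0.553%, 1.68%, 3.65% and 12.8%. At 8 h, 0 genes also passed the fold threshold with an unadjusted p of 0.05 or less in limma or in the methods' t-test. The median log2 fold change of the 10 genes was -0.18, -0.24, 0.07 and -0.01 at the 4 times, beside -0.05, -0.13, -0.02 and -0.15 over all genes. These calls rest on a spread shared by all 8 groups. With only the UT and vit C arrays of 1 time in the fit none of the 7 calls was made, and leaving out single arrays left between 0 and 1 call at 24 h, 1 and 2 at 48 h and 0 and 3 at 96 h.

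**Figure D1:**
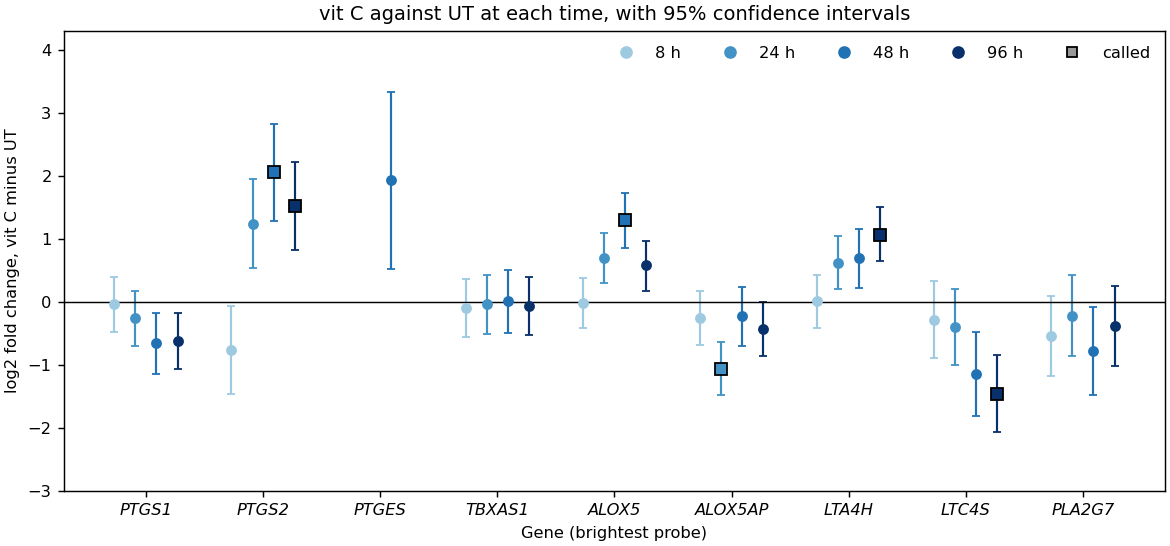
Log2 fold change of vit C-treated minus UT cells (vertical axis) for the brightest probe of 9 genes at 8, 24, 48 and 96 h, with 95% confidence intervals from limma; outlined squares are called, PTGES is shown only at 48 h and HPGD not at all because both groups lay below background, and the call of PTGS1 at 48 h belongs to its dimmer probe, which is not drawn. PTGS2 moved from -0.77 at 8 h to 2.06 at 48 h, LTA4H reached 1.07 and LTC4S -1.46 at 96 h, and all 4 TBXAS1 values lay within 0.1 of 0.

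PTGS2, the inducible cyclooxygenase, was the gene with the widest range of group means, 5.17 on the log2 scale. In UT cells its level was -2.55 and -2.46 at 8 h, -0.90, -0.97 and -1.38 at 24 h, -0.29 and -0.02 at 48 h, and -2.25, -3.14 and -2.57 at 96 h. In vit C-treated cells it was -3.06, -3.03 and -3.72 at 8 h, -0.38 and 0.69 at 24 h, 2.01 and 1.79 at 48 h, and -1.22 and -1.03 at 96 h. Both series rose to 48 h and came down by 96 h, and at each time the UT and vit C arrays did not overlap, with vit C below UT at 8 h and above it from 24 h on. Such separation of arrays was common over all genes, with 39%, 30.3%, 50.7% and 36.9% of them separated at the 4 times.

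The PTGS2 difference was 2.06 at 48 h (SE 0.36, q = 0.0074 in limma), a 4.16-fold higher signal, and 1.52 at 96 h (SE 0.33, q = 0.0153). The dimmer of its probes gave 2.07 and 1.92. At 24 h the difference of 1.24 was not called (95% interval 0.54 to 1.95, limma q = 0.075), although it was with normexp (1.03, limma q = 0.0291) and without vit C 24 h replicate 1 (1.78, limma q = 0.0354). It was -0.77 at 8 h (interval -1.47 to -0.06, limma q = 0.353). With the slide as a fixed block the 48 h difference, which then rests on 1 vit C array, was 2.77 and no longer called. Without UT 48 h replicate 1 or vit C 48 h replicate 1 the call was also lost at 48 h, as it was at 96 h without either vit C array, while the values stayed between 1.92 and 2.19 at 48 h and between 1.28 and 1.73 at 96 h. After normexp background correction it was 0.98 at 96 h and missed the fold threshold.

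Averaged over the 4 times, PTGS2 was the 1 gene of 8 tested that was called, at 1.01 (SE 0.17, limma q = 0.00145), against 3.49% of all genes. It was also the 1 gene of 10 whose vit C effect differed between times by limma's F test (F = 13.5, q = 0.0315), against 1.37% of all genes, and the dimmer probe passed as well (F = 11.4, q = 0.0493). The F test's call was lost when any 1 of 11 of the 19 arrays was left out, namely each array of UT 8 h, UT 48 h, vit C 8 h, vit C 48 h and vit C 96 h. With a replicate block the call was lost too (F = 10.64, limma q = 0.102). Restricted to 8, 24 and 48 h, an alternative chosen after seeing the data, F was 18.3 (limma q = 0.0724), and 17 with the slide as a block (limma q = 0.08). At 8 and 24 h all UT arrays were on 1 slide and all vit C arrays on another, so that a constant slide shift cancels when the effect at 8 h is taken from that at 24 h. This change of effect was 2.01 (SE 0.47, 95% interval 1.01 to 3.01), which was not called over all genes (limma q = 0.301).

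PTGES, the inducible prostaglandin E2 synthase, was well above background on 3 of 19 arrays, which were both vit C arrays and 1 of 2 UT arrays at 48 h. Those levels were -2.83 and -2.97 with vit C and -4.19 in UT cells, where the other UT array read -5.48. On the other 15 arrays it lay between -7.41 and -4.80, below background in every group. The vit C difference of 1.94 at 48 h had a 95% interval of 0.53 to 3.34 and was not called (limma q = 0.135). With signals floored at 20 it was 1.42 and called (limma q = 8.28e-08). The floor gives every PTGES array below background the same value and so removes their spread, and this q says little about the flasks. From 8 to 48 h in vit C-treated cells PTGES rose at least 4.04-fold (limma q = 0.000546). With normexp background correction that rise was 0.99 and missed the fold threshold. The highest levels of PTGS2 and of PTGES were thus both on the vit C arrays of 48 h.

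PTGS1, the constitutive cyclooxygenase, fell in both series. Its level was 4.37 and 4.38 in UT cells at 8 h, 3.31, 3.83 and 3.98 at 24 h, 3.58 and 3.53 at 48 h, and 3.48, 3.40 and 3.22 at 96 h. With vit C it was 4.35, 4.14 and 4.49 at 8 h, 3.51 and 3.38 at 24 h, 2.99 and 2.80 at 48 h, and 2.79 and 2.71 at 96 h. By this brighter probe the vit C arrays lay below all UT arrays at 48 and 96 h and overlapped them at 8 and 24 h. By the dimmer probe they lay below at 48 h and overlapped at 96 h. At 48 h the dimmer probe was called lower by 1.11 (a log2 difference of -1.11, limma q = 0.0422) and the brighter one was at -0.66 (limma q = 0.138). With the slide as a fixed block, and so 1 vit C array, the dimmer probe's difference shrank to -0.40. The call was also lost, at values from -1.12 to -0.88, with any 1 of the 4 arrays left out and with opposing probes kept, the percentile over detected probes, gene means of probes, the slide as a random block or a replicate block. At 96 h the brighter probe was at -0.62 (95% interval -1.06 to -0.18, limma q = 0.0557).

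TBXAS1, which makes thromboxane A2 and is typical of platelets and macrophages, was read differently by its 2 probes. The brighter lay between 0.24 and 1.38 on all 19 arrays, and the 95% interval of its vit C difference at 96 h was -0.53 to 0.40. The dimmer read 0.64, 0.87 and -0.62 in UT cells and 1.37 and 1.25 with vit C at 96 h, a difference of 1.01, which was not tested because the brighter probe was at -0.07. UT 96 h replicate 3 was the low array of the dimmer probe and not of the brighter one. The mean level of 5 megakaryocyte and platelet markers was -3.01 to -2.15 in UT and -1.90 to -1.85 in vit C arrays at 96 h. GP9 was well above background on all 19 arrays, ITGA2B and GP1BA on 18, PPBP on 14 and PF4 on 5, with no marker of the list at 0, and their part in the TBXAS1 reading was not tested. HPGD, the prostaglandin-inactivating dehydrogenase, was well above background on no array by either probe, so no fold is given for it.

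**Figure D2:**
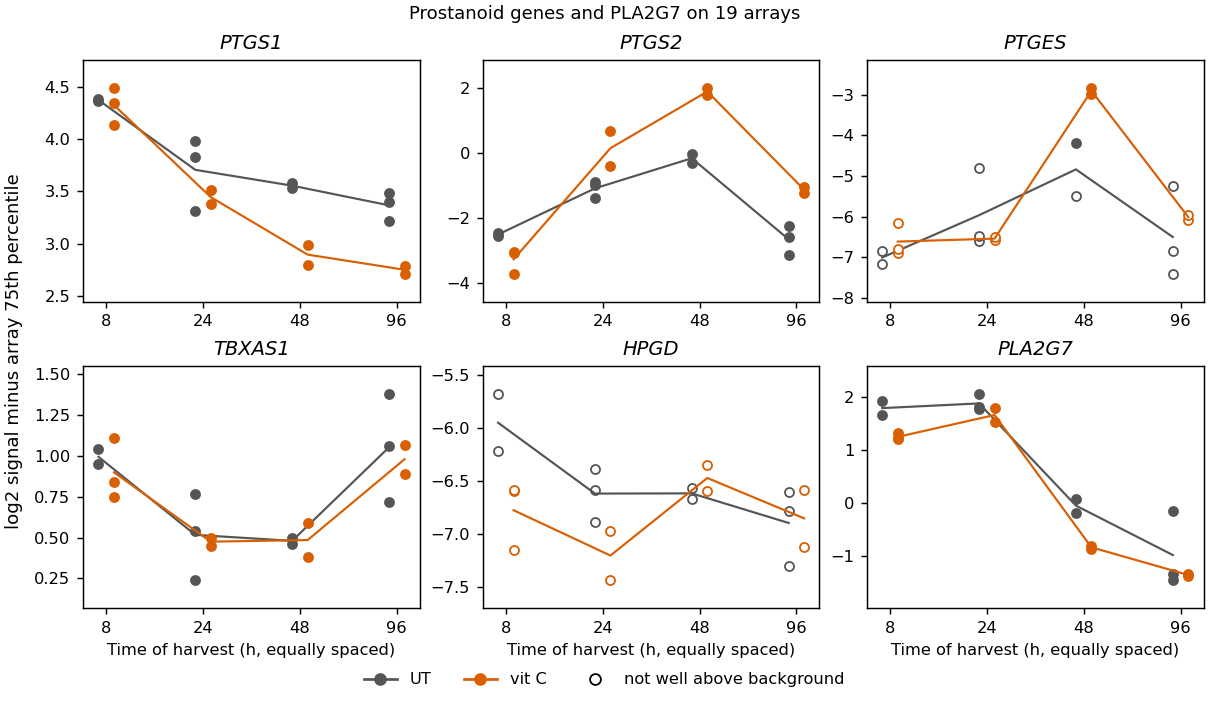
Level of PTGS1, PTGS2, PTGES, TBXAS1, HPGD and PLA2G7 (log2 signal minus the array's 75th percentile, own scale in each panel) on 19 arrays by time of harvest, for UT (grey) and vit C (orange); points are arrays, lines join group means and open points are not well above background. PTGS2 was highest on the vit C arrays of 48 h, PTGES stood above background on 3 arrays, HPGD on none, and PLA2G7 dropped between 24 and 48 h in both series.

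Along the leukotriene route ALOX5, the 5-lipoxygenase, rose steadily. Its level in UT cells was 1.77 and 1.90 at 8 h, 2.34, 2.28 and 2.10 at 24 h, 3.90 and 3.86 at 48 h, and 5.29, 5.49 and 5.69 at 96 h. With vit C it was 1.65, 1.94 and 1.87, then 2.96 and 2.90, then 4.98 and 5.37, then 6.02 and 6.12. The arrays overlapped at 8 h, and from 24 h on every vit C array lay above every UT array of its time. The difference was 0.69 at 24 h (limma q = 0.0771), 1.30 at 48 h (SE 0.20, limma q = 0.00363) and 0.58 at 96 h (limma q = 0.0503), of which that at 48 h, a 2.46-fold higher signal, was called. It was called in all 4 fits with a single array of the compared groups left out. With the slide as a fixed block, and so 1 vit C array, it was 0.81 and not called. The average over the 4 times was 0.64 (SE 0.09, limma q = 0.000649), under the fold threshold. The F test of different effects between times gave q = 0.107 in limma, and with quantile normalization, normexp or the floor of 20 it passed.

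ALOX5AP, the protein that presents arachidonic acid to ALOX5, dipped at 24 h. Its level in UT cells was 5.65 and 5.79 at 8 h, 4.92, 4.64 and 5.15 at 24 h, 5.87 and 6.05 at 48 h, and 7.28, 6.92 and 7.04 at 96 h. With vit C it was 5.35, 5.43 and 5.58, then 3.68 and 4.02, then 5.74 and 5.71, then 6.79 and 6.52. The vit C arrays lay below the UT arrays at all 4 times for this probe. The 24 h difference of -1.06 was called (SE 0.20, limma q = 0.018), a 2.08-fold lower signal, and the dimmer probe gave -0.79 (limma q = 0.0783). The mean level of the 10 macrophage markers was 3.31 to 3.36 in UT and 2.94 to 3.21 in vit C arrays at 24 h, also without overlap, and its part in the difference was not tested. The call was lost with the gene mean of both probes (-0.92), with normexp (-0.91), with a replicate block (just under the fold threshold) and with the slide as a fixed block (-0.76, limma q = 0.589), but not as a random block. It was also lost without any 1 of UT 24 h replicates 1 and 3 and the vit C 24 h arrays, and over the fits with 1 array left out the difference ranged from -1.23 to -0.88. At 8 and 48 h the probes went in opposite directions and the gene was not tested, and at 96 h the difference was -0.43 (95% interval -0.86 to 0.00, limma q = 0.173).

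LTA4H and LTC4S, which take leukotriene A4 to different products, moved apart. LTA4H read 5.52, 5.12 and 5.67 in UT cells and 6.54 and 6.48 with vit C at 96 h, a called difference of 1.07 (SE 0.20, limma q = 0.00628) or 2.10-fold. LTC4S read -0.77, -0.84 and -1.71 in UT cells and -2.49 and -2.64 with vit C at 96 h, a called difference of -1.46 (SE 0.29, limma q = 0.0088) or 2.74-fold lower. The arrays of the groups did not overlap for either gene. At 48 h the LTA4H difference was 0.69 (95% interval 0.22 to 1.16, limma q = 0.108) and that of LTC4S -1.15 (interval -1.82 to -0.48, limma q = 0.0585), and LTC4S was called there with quantile normalization or with dim probes left out. At 8 h the differences were 0.01 for LTA4H (interval -0.42 to 0.43) and -0.28 for LTC4S (interval -0.89 to 0.33). Averaged over times they were 0.60 for LTA4H (limma q = 0.00176) and -0.82 for LTC4S (limma q = 0.00229), both under the fold threshold. Without either vit C 96 h array both calls at 96 h were lost, and without UT 96 h replicate 2 that of LTA4H was. The values stayed between 0.92 and 1.19 for LTA4H and between -1.76 and -1.29 for LTC4S. The mean level of 4 mast cell markers, none above background on all arrays and MS4A2 on none, was also lower with vit C. It was -5.10 to -4.80 in UT and -6.36 to -5.88 in vit C arrays at 96 h, and -5.21 to -5.03 against -5.96 to -5.95 at 48 h. Its part in the LTC4S difference was not tested.

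**Figure D3:**
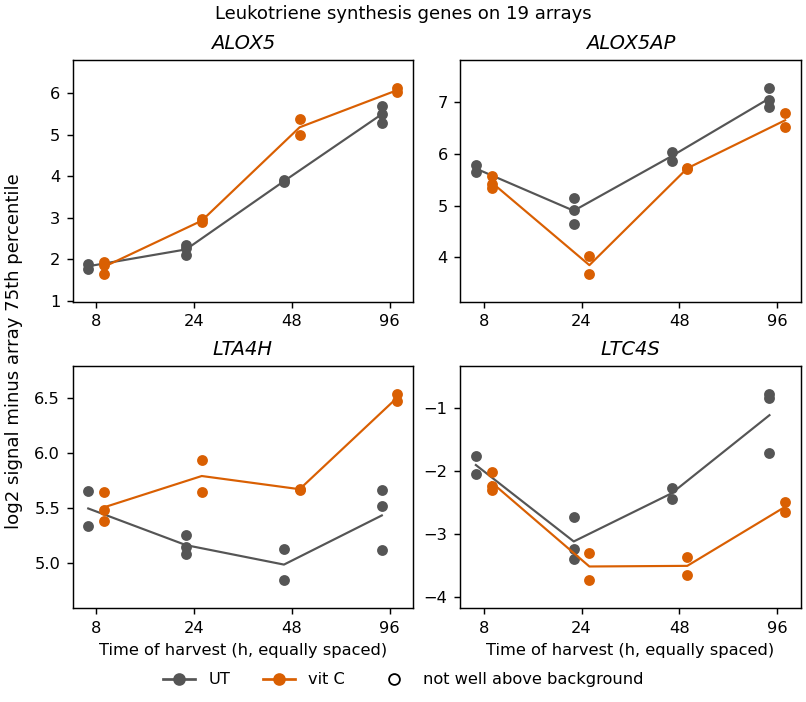
Level of ALOX5, ALOX5AP, LTA4H and LTC4S (log2 signal minus the array's 75th percentile, own scale in each panel) on 19 arrays by time of harvest, for UT (grey) and vit C (orange), all well above background; points are arrays and lines join group means. ALOX5 rose from about 2 to 6, ALOX5AP had its lowest level at 24 h, and at 96 h vit C arrays were higher for LTA4H and lower for LTC4S.

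PLA2G7 did not differ by a called amount between vit C-treated and UT cells at any time. Its differences were -0.54, -0.22, -0.78 and -0.38 at the 4 times, with limma q between 0.24 and 0.689. The 95% intervals ran from -1.18 to 0.10, -0.86 to 0.42, -1.48 to -0.08 and -1.02 to 0.26. A rise of 1 lay outside all of them and a fall of 1 outside that of 24 h alone.

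The other question was how these genes moved with time in culture within each series. Between 8 and 24 h in UT cells 3 of 8 tested genes were called (2.65% of all genes tested), namely PTGS2 higher and LTC4S and PTGS1 lower. At 48 h there were 3 of 9 (8.93% of all genes), with PTGS2 and ALOX5 higher and PLA2G7 lower, and at 96 h 4 of 9 (16.1% of all genes), with ALOX5 and ALOX5AP higher and PLA2G7 and PTGS1 lower. In vit C-treated cells the counts were 5 of 10 at 24 h (5.62% of all genes), 6 of 9 at 48 h (13.1%) and 7 of 9 at 96 h (28.9%). Those at 24 h were PTGS2 and ALOX5 higher and ALOX5AP, LTC4S and PTGS1 lower. PTGES was added to the rises and PLA2G7 to the falls at 48 h, without ALOX5AP. At 96 h ALOX5, PTGS2, ALOX5AP, LTA4H and TBXAS1 were higher and PLA2G7 and PTGS1 lower. TBXAS1 counted there through its dimmer probe alone (1.76, limma q = 0.00143), while the brighter was at 0.08 (limma q = 0.782) and the mean of both at 0.92 was under the fold threshold. The 8 h arrays are shared by the comparisons within a series. Of these comparisons, UT 24 and 48 h against 8 h and vit C 24 h against 8 h lay within 1 slide each. Leaving out 1 array ended all 3 calls of UT cells at 24 h in turn, PTGS1 without any 1 of the 5 arrays and PTGS2 and LTC4S without any but UT 24 h replicate 3, with PTGS1 between -1.36 and -0.80, PTGS2 between 1.33 and 1.57 and LTC4S between -1.42 and -1.08. It also ended those of PTGS1 at 96 h in UT cells (-0.93 without UT 96 h replicate 3) and, with vit C, of PTGS1 at 24 h (without either 24 h array), LTC4S at 24 h (24 h replicate 2) and 48 h (48 h replicate 1), LTA4H at 96 h (8 h replicates 2 and 3, 96 h replicate 1) and TBXAS1 at 96 h (96 h replicate 1). With the slide as a fixed block PTGS1 in UT cells at 96 h, which then rests on UT 96 h replicate 1, was at -0.89 and not called. With the slide as a random block the rise of LTA4H with vit C to 96 h fell just under the fold threshold. The mean level of 5 fibroblast markers moved with time too, from between -5.39 and -5.10 at 8 h. At 24 h it was -4.63 to -4.11 in UT and -4.40 to -4.30 in vit C arrays, which overlapped. At 48 h it was -3.18 to -3.09 in UT and -2.84 to -2.51 in vit C arrays, and at 96 h -3.97 to -3.50 and -3.49 to -3.34. The vit C arrays thus lay higher at 48 h and, by a narrow gap, at 96 h, whereas those of PTGS2 and ALOX5 lay higher at 24, 48 and 96 h. PDGFRA was above background on all 19 arrays, DCN on 14, COL1A1 on 5, COL3A1 on 2 and COL1A2 on none, and their part in the changes with time or with vit C was not tested.

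**Figure D4:**
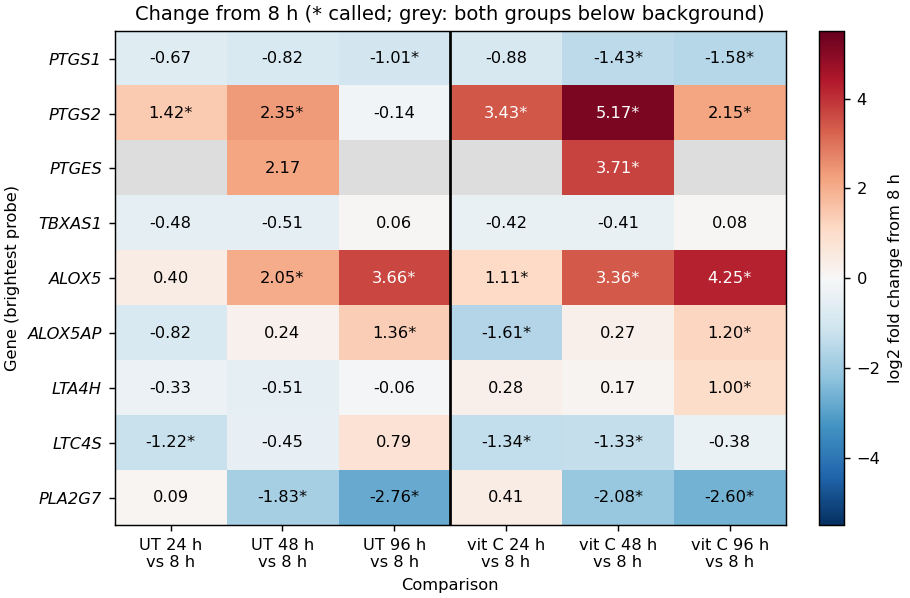
Log2 fold change from 8 h for the brightest probe of 9 genes (rows) without and with vit C at 24, 48 and 96 h (columns); the printed number is the change, an asterisk marks a called change and grey cells have both groups below background. PTGS2 rose by 5.17 to 48 h with vit C and by 2.35 without, ALOX5 rose in both series, and PLA2G7 dropped in both; PTGS1 in UT and vit C cells at 24 h and TBXAS1 in vit C cells at 96 h were called by their dimmer probe, which is not drawn, and PTGES values are fitted against levels below background.

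PTGS2 rose by 1.42 at 24 h and 2.35 at 48 h in UT cells and was back at -0.14 by 96 h (95% interval -0.85 to 0.56). In vit C-treated cells it rose by 3.43 at 24 h (SE 0.33, limma q = 2.4e-05), by 5.17 at 48 h (SE 0.33, limma q = 1.28e-07), and was still 2.15 above the 8 h level at 96 h (limma q = 0.000226). ALOX5 had the largest rise to 96 h of the 10 genes, 3.66 in UT (12.6-fold, limma q = 2.13e-08) and 4.25 with vit C (limma q = 1.86e-09). The order of ALOX5 levels over the 8 groups followed time, with vit C 96 h above UT 96 h. Only the neighbours UT 96 h and vit C 48 h, and UT 8 h and vit C 8 h, overlapped in that order. For PTGS2 the order ran from vit C 48 h through vit C 24 h and UT 48 h, which overlapped, then UT 24 h and vit C 96 h, which overlapped, to UT 8 h, UT 96 h and vit C 8 h, each overlapping the next.

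PLA2G7 did not differ by a called amount between 8 and 24 h and fell after that, staying well above background on all 19 arrays. UT arrays read 1.66 and 1.91 at 8 h, 2.05, 1.77 and 1.80 at 24 h, -0.18 and 0.08 at 48 h, and -1.45, -1.33 and -0.16 at 96 h. With vit C they read 1.31, 1.2 and 1.22, then 1.52 and 1.79, then -0.86 and -0.81, then -1.37 and -1.34. No 48 or 96 h array overlapped an 8 or 24 h array. The fall to 96 h was -2.76 in UT (6.77-fold, limma q = 1.17e-05) and -2.60 with vit C (6.06-fold, limma q = 1.58e-05). In RNA from whole flasks fewer cells of a type and less RNA per cell cannot be told apart.

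LTC4S was lower at 24 h than at 8 h in both series, and with vit C it was still as low at 48 h. In UT cells LTC4S read -2.04 and -1.76 at 8 h, -3.23, -3.40 and -2.72 at 24 h, and -2.26 and -2.44 at 48 h. With vit C it read -2.23, -2.29 and -2.01 at 8 h, -3.30 and -3.73 at 24 h, and -3.65 and -3.36 at 48 h. The fall to 24 h was -1.22 in UT cells (limma q = 0.0334) and -1.34 with vit C (limma q = 0.0102), and both were lost with normexp background correction, as was the fall with vit C at 48 h. At 48 h the fall was -0.45 in UT cells (limma q = 0.382) and -1.33 with vit C (limma q = 0.00473), and whether these differ was tested by the F test over the 4 times (limma q = 0.236) and, chosen after seeing the data, over 8, 24 and 48 h (limma q = 0.657, or 0.685 with a slide block), with no call. UT 96 h replicate 3 was the low array at 96 h, and without it the rise of LTC4S from 8 to 96 h in UT cells was 1.09 and called (limma q = 0.00436), against 0.79 with it (limma q = 0.0642). The mast cell marker mean ran from between -5.44 and -5.20 at 8 h to between -5.96 and -5.72 at 24 h in UT cells, and then to the 48 and 96 h levels given above. With vit C it was -6.00 to -5.5 at 8 h and -6.12 to -5.74 at 24 h, and its part in the course of LTC4S was not tested. LTA4H, by contrast, lay between 4.85 and 5.67 on the 10 UT arrays.

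The genes whose 8 group means ran most like those of 3 members were looked up among 17211 genes well above background on all arrays. Closest to PTGS2 were NAGS, PSD3 and ITGB8, with Pearson r of 0.975, 0.968 and 0.965. Closest to ALOX5 were ANKRD22, S100A8 and INCENP, at 0.994, 0.992 and 0.991, and closest to PTGES were AFF3, ATHL1 and RBM38, at 0.976, 0.962 and 0.959. These are descriptions over 8 points that share arrays and time, and the PTGES values are mostly below background.

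A list of 54 other genes of the pathway was read in the same way, made up of 18 phospholipase A2 and platelet-activating factor genes, 9 prostanoid enzymes, 11 lipoxygenase and leukotriene-handling genes and 16 receptors and transporters. In vit C against UT cells 0 of 42 tested were called at 8 h, 1 of 43 at 24 h, 2 of 43 at 48 h and 6 of 48 at 96 h, beside 0.553%, 1.68%, 3.65% and 12.8% of all genes, so that the list was near the background share. At 8 h, 2 of them passed the fold threshold with an unadjusted limma p of 0.05 or less. Of the 6 called at 96 h, 1 was higher, and the other 5 (PLA2G5, PTGER3, PTGFR, CYP4F2 and CYSLTR2, named after their values were seen) were lower by probes that were above background throughout neither group. Over all genes 2.74% were called higher and 10.1% lower at 96 h. The list medians were -0.14, -0.17, 0.02 and -0.27. PTAFR, the receptor of platelet-activating factor, was lower at 24 h by a log2 difference of -1.59 (SE 0.29, limma q = 0.0141). CYSLTR1, a receptor of cysteinyl leukotrienes, was lower at 48 h (-1.04, SE 0.20, limma q = 0.0116), and PLA2G5, a secreted phospholipase, was at least 1.84-fold lower there (limma q = 0.0383). PTGDS, a prostaglandin D2 synthase, was higher at 96 h by 1.06 with its called probe (SE 0.20, limma q = 0.00742).

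From 8 to 96 h in UT cells 8 of 48 tested pathway genes were called, 4 in each direction, beside 16.1% of all genes, which is near the same share. PTGDS and DPEP2, a dipeptidase of leukotriene D4, had the largest rises, 1.92 (limma q = 6.75e-06) and 1.69 (limma q = 0.00165). AKR1C3, which makes prostaglandin F compounds, and TBXA2R, the thromboxane receptor, had the largest falls, -2.37 (limma q = 0.0017) and -2.07 (limma q = 1.03e-06). With vit C the same 4 changes were 3.23, 2.44, -1.69 and -2.30, all called.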

How the data were processed

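RNA of 19 samples was hybridised to 1-colour Agilent whole-genome arrays. Intensity values: per the labels and methods, the authors extracted spots with Agilent Feature Extraction and deposited the processed signal of each array (spatially detrended, with no local background subtraction per the file headers), without normalization between arrays. The authors' deposited log2 values, shifted to the 75th percentile of each array, served as an alternative. Here 30 to 79 outlier spots per array were left out, spots of a probe averaged as log2 values and the array's 75th percentile subtracted, for 50238 probes of 31033 names. Names are those of the array design.

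A model of 8 group means was fitted with limma 3.58.1 (lmFit, eBayes, 2-sided) in R 4.3.3 (tables read by data.table, version 1.17.8). Genes with probes in opposite directions were left out, as in the methods, except in the F test. A signal below background in 1 group gives a bound ("at least"). It compares the mean of the bright group with the lowest level well above background, or the dim probe's own level where higher. The methods' t-test was an alternative. Groups follow the labels, and replicate numbers were not used as pairs in the main fit.

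All 10 members are named. Other pathway genes are named when called in vit C against UT cells by a probe above background on a whole group, with the largest 2 rises and 2 falls of UT cells from 8 to 96 h. Members, lists and rules were chosen with earlier results of these data known. RefSeq promoters were matched by symbol for 9 members, all but ALOX5. The fit was tested on simulated data. The number of arrays limits precision. One marker gene is not reported here.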

Additional observations from a re-analysis of the deposited data

Results flagged for a closer look

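The vit C effect on PTGS2 differed between the 4 times in limma's F test (q = 0.0315), from a log2 difference of -0.77 at 8 h to 2.06 at 48 h. It stood out because effects of the same contrast were unlike between time points. No group held 4 or more arrays, so single arrays were not screened for outlying values.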

How the results depend on the processing

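Of 2515 values of a gene under another setting, 2386 kept their call or their lack of one. Values called in neither setting count among these whatever their sign. A call was lost by 115 and gained by 13 with the sign of the main value. The remaining 1 gained a call against that sign. It was TBXAS1 in vit C against UT cells at 96 h, from -0.07 to 0.09 without UT 96 h replicate 2, when its dimmer probe was called (range over single arrays left out -0.23 to 0.09). The counts of genes called that moved by over 1.5 times were as follows. In vit C against UT cells the count was 0 in place of 1 at 24 h with gene means of probes, a fixed slide block, a replicate block, a fit of only the groups compared or the methods' adjusted t-test. It was 0 in place of 3 at 48 h with the slide block, the fit of only the groups compared or the t-test, and 0 in place of 3 at 96 h with the latter 2. The averaged effect gave 0 in place of 1 with normexp. The difference between times gave 2 with quantile normalization or normexp, 3 with the floor of 20, 0 with the replicate block, and 0 for 8, 24 and 48 h only, with or without a slide block. With the floor PTGES was among the 3, through the constant values described for it above. UT 24 h against 8 h gave 1 with the replicate block and 0 with the fit of only the groups compared or the t-test, which also gave 0 for UT 48 h, 1 for UT 96 h and 0 for vit C 24 h against 8 h. Smaller moves were a count of 4 in vit C against UT cells at 48 h with quantile normalization, the floor of 20, dim probes left out or the unadjusted t-test, and of 2 with the percentile over detected probes, opposing probes kept, gene means, a random slide block or the replicate block. Normexp gave 2 at 96 h, 2 for UT 24 h, 4 for vit C 24 h and 4 for vit C 48 h against 8 h. Gene means gave 2 for UT 24 h and 6 for vit C 96 h against 8 h, the latter also with the random slide block, and UT 96 h against 8 h gave 3 with the fixed slide block or only the groups compared.

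With 1 array left out the counts ranged from 0 to 3 for UT 24 h, 3 to 5 for vit C 24 h, 5 to 6 for vit C 48 h and 5 to 7 for vit C 96 h against 8 h, from 0 to 1, 1 to 2 and 0 to 3 in vit C against UT cells at 24, 48 and 96 h, and from 0 to 2 for the difference between times. A lone array is then assumed to vary like the other groups. Replicate numbers were not used as pairs in the main fit. Correlations of same-numbered deviations ran from -0.12 to 0.0953 in 8 pairs. Where a group has 2 arrays their deviations mirror each other, so these values cannot settle whether flasks were paired. The slide block gives no value for vit C 96 h, the average or the difference over 4 times. Over all genes, the methods' t-test called 12, 0, 4 and 0 genes after Benjamini-Hochberg adjustment in vit C against UT cells at the 4 times and 1300, 1316, 1531 and 3304 at an unadjusted p, where limma called 139, 438, 928 and 3374. The fit of only the groups compared called 0 at 48 h, and 5997 were called at 96 h without UT 96 h replicate 3. Signal over background limits PTGES and HPGD.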
